A study of Mus musculus with 10 samples.

Results

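Glycolysis is the chain of enzymes that splits glucose to pyruvate and lactate, and many of its genes are switched on by the hypoxia-inducible factor (HIF). This gene module held 35 genes matched by symbol: 16 glycolytic enzymes, 5 regulators of glycolytic flow and 14 HIF genes. The regulators were pyruvate dehydrogenase kinase genes and the genes Pfkfb3 and Pfkfb4. The HIF genes comprised the factor gene Hif1a and targets of HIF outside glycolysis. In the whole series 18193 genes had a probe set naming a single gene. Each gene was read from the probe set that was brightest by its mean over all 10 arrays. Of the 35 members, 32 had such a probe set and 30 lay above 4.559, the 40th percentile of probe-set means on the log2 scale. Those 30 were tested: 13 enzymes, 5 regulators and 12 HIF genes. The enolase gene Eno2, at 4.32 ± 0.16 (SD, n = 5) on scrambled and 4.18 ± 0.18 (SD, n = 5) on antisense arrays, and Adm, the gene of the vasodilator peptide adrenomedullin, at 4.18 ± 0.16 and 4.26 ± 0.060 (SD, n = 5 each), lay under that level and were not tested. Gpi1, Eno1 and Bnip3l were not analysed here, the last because its probe sets list several genes.

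All 10 samples were total RNA from BMEL cells, a mouse embryonic liver line that can give rise to hepatocyte-like and bile duct-like cells. They were transfected by means of Oligofectamine with a locked nucleic acid (LNA) oligonucleotide against miR-30a (antisense, 5 arrays) or with a scrambled oligonucleotide (5 arrays), and both groups carry the replicate numbers 1 to 5. The level of miR-30a itself was not analysed here, so its knockdown was not checked. Neither untransfected nor hypoxic cells are named in the labels. Separate cultures are not named in the labels, so a p-value here reflects the variation among the 10 samples alone, some of which may be technical. In bulk RNA, fewer cells expressing a gene and less RNA per cell cannot be told apart.

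In well-oxygenated cells, prolyl hydroxylases mark the HIF alpha subunit for destruction. When oxygen is short the subunit persists, pairs with ARNT and binds a short DNA core in its target genes. The targets include nearly every step of glycolysis, the kinases that close pyruvate off from mitochondria, and genes of mitochondrial clearance, blood vessel growth and collagen modification. In liver, glycolytic activity is higher in the poorly oxygenated perivenous zone.

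The oligonucleotide was directed against the microRNA below. RefSeq (GRCm38.p6, chr1:23272274-23272295, plus strand for miR-30a-5p) is the source of the sequences. The 3 microRNAs printed share the seed, bases 2 to 8, shown in capitals, and are not a complete list of those that carry it.
miR-30a-5p: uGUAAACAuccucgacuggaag
miR-30c-5p: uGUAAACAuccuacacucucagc
miR-30e-5p: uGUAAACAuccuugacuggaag
Sites for this seed in the members' transcripts were not searched.

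The HIF core was looked for in RefSeq promoter windows, the 250 bases before each annotated start, as ACGTG or GCGTG on either strand, with overlapping matches counted once. ACGTG is also part of the E-box CACGTG, which other factors bind. The windows below belong to the 4 members whose values spread most between arrays (Bnip3, Ankrd37, Aldoc and Pdk1) and to Pfkp, the only member whose groups did not overlap. Capitals mark the cores. For Aldoc and Pdk1, which have 2 windows each, the one farther upstream in the genome is shown; the other Pdk1 window holds 0 cores.
Ankrd37, chr8:45999851-46000100, minus strand, 3 cores: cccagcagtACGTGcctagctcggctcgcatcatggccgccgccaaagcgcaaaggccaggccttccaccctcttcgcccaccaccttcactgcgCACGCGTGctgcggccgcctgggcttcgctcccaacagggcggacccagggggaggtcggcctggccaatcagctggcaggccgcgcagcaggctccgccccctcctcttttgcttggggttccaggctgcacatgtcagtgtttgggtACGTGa
Bnip3, chr7:138909507-138909756, minus strand, 4 cores: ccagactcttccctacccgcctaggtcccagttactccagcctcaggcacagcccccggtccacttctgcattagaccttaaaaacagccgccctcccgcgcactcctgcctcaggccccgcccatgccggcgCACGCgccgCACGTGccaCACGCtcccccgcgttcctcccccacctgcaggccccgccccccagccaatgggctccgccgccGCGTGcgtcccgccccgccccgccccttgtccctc
Pfkp, chr13:6648772-6649021, minus strand, 3 cores: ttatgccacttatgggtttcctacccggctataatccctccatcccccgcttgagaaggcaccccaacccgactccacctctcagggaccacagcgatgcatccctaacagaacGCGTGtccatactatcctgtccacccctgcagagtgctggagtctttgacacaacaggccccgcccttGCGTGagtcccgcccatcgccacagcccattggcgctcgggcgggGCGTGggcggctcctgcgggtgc
Aldoc, chr11:78322823-78323072, plus strand, 1 core: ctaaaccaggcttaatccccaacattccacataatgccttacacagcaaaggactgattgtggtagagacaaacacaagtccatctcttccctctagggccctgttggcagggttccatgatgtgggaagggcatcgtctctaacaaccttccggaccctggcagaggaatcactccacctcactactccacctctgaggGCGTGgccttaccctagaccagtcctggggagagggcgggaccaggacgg
Pdk1, chr2:71872974-71873223, plus strand, 1 core: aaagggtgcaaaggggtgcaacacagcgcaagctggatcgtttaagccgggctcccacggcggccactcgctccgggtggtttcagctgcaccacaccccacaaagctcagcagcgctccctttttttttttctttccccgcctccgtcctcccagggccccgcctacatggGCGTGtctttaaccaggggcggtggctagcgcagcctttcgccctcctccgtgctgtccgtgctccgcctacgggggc
Of 52 windows of 33 members, 39 (75.0%) hold at least 1 core, against 38.6% of all 32851 windows of that length. At least 3 cores stand in 8 of the 52 (15.4%), against 4.65% of all windows. Base composition was not matched between the members and the other windows, and a match of letters is a description, not a binding site.

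The epithelial markers Krt8, Krt18 and Cdh1 and the liver factor gene Hnf4a had mean log2 values between 10.68 and 13.77. Of the bile duct markers, Krt19 had a mean of 13.48, Krt7 11.62, Sox9 7.27 and Epcam 6.33. Of the secreted hepatocyte products, Apob had a mean of 9.36, Ttr 8.20, Afp 6.38, Apoa1 5.77 and albumin (Alb) 4.71. Ttr, the gene of a thyroid hormone carrier, differed by -1.17 (SE 0.27, limma adjusted p = 0.0574) and passed with the replicate block (adjusted p = 0.000812), lower in 5 of 5 pairs. Sox9 was higher by 0.17 with no overlap between groups (limma adjusted p = 0.0662, or 0.0571 with the block). Apoa1 differed by -0.21 (0.213) and Apob by 0.15 (0.227). Each of these also kept its direction in 5 of 5 pairs. Of other cell types' markers, Ptprc and Adgre1 (blood and macrophage), Pecam1, Cdh5 and Tek (endothelium) and Col1a1 (mesenchyme) lay under the lowest level tested. Others on those lists lay above it: Csf1r at 6.44, Flt1 at 8.22 and Kdr at 6.09, and Acta2, Col1a2, Dcn, Des and Pdgfrb between 4.77 and 5.66. The macrophage marker Cd68, also a lysosomal protein gene, rose by 0.39 (limma adjusted p = 0.0176), a call lost without antisense 3 (0.0523) or antisense 4 (0.0551). The part of these markers in the members' values was not tested. Array medians were 5.21 to 5.24, and each array correlated with the others at 0.996 to 0.998 on average.

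No member of the module was called higher or lower with the antisense oligonucleotide at the precision of these arrays. That is 0 of 30 past an adjusted p of 0.05 (limma, Benjamini-Hochberg over 12633 genes, antisense minus scrambled), beside 1.53% of all genes tested. The 193 genes called were 146 higher (1.16%) and 47 lower (0.372%). Changes were small: the members ran from -0.35 (Ankrd37) to 0.17 (Pdk3) on the log2 scale, and no member's 95% interval reached a 2-fold difference. Intervals of only 2 members, Ankrd37 and Bnip3, reached 1.5-fold. At an unadjusted p of 0.05, 3 of 30 members passed, against 12.9% of all genes. Pfkp and Ndrg1 were on the lower side (4.5% of all genes) and Pdk3 on the higher side (8.41%).

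Of 30 members 22 had a change below 0 (73.3%), against 44.9% of all genes, and the median change was -0.049 against 0.0084. The enzymes were 12 of 13 below 0 with a median of -0.037, the HIF genes 8 of 12 with -0.064, and the regulators 2 of 5 with 0.019. Single arrays moved these values. Without scrambled 1, 17 of 30 members were below 0 (45.7% of all genes) with a median of -0.017, the enzymes being 8 of 13 (-0.0099) and the HIF genes 7 of 12 (-0.028). Without antisense 2 the members were 19 of 30 (-0.028), without scrambled 5 they were 20 of 30 (-0.026), and without antisense 4 they were 23 of 30 with a median of -0.032. The regulators' median turned to -0.017 without antisense 5 and to -0.0011 without scrambled 3. The members varied together between arrays, so these counts are not those of 30 independent genes. Groups did not overlap for 1 of 30 members, Pfkp, beside 3.92% of all genes (1.18% with antisense lower and 2.74% with antisense higher).

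**Figure D1:**
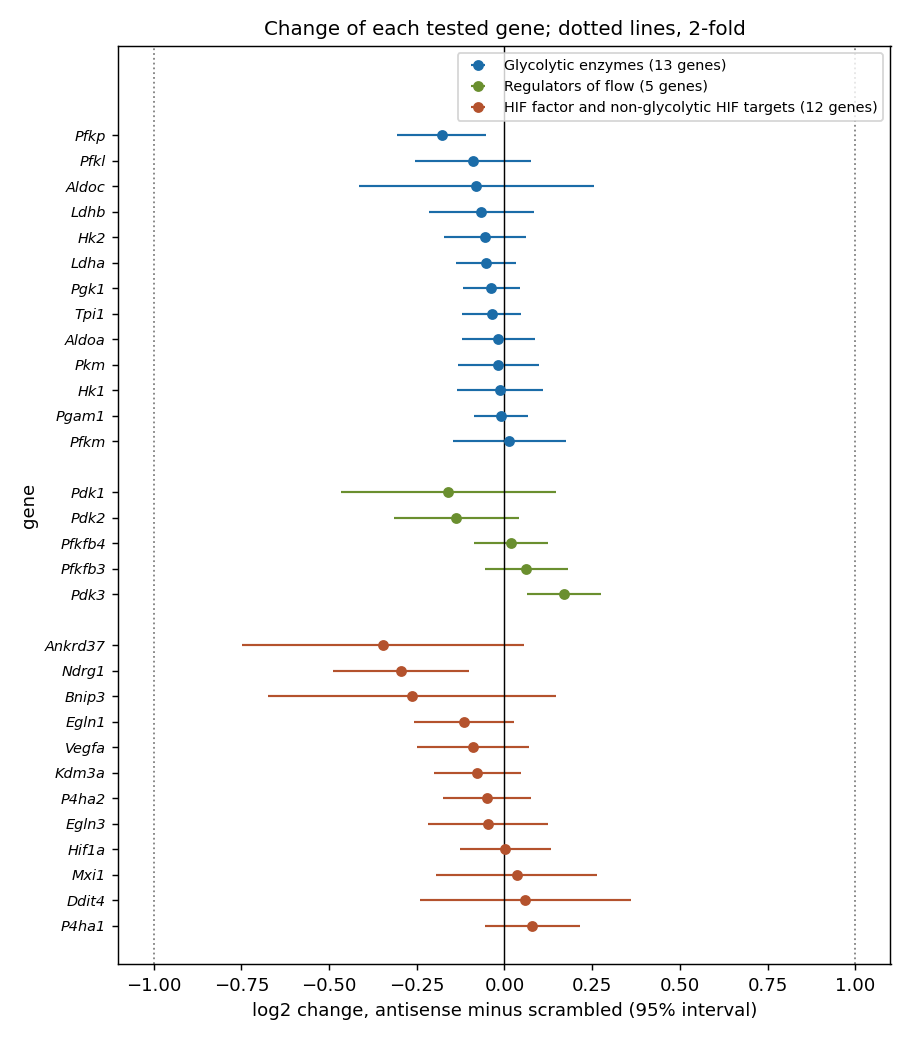
Log2 change (antisense minus scrambled) of each of the 30 tested members with its 95% interval from limma (5 arrays a group), by gene group, dotted lines marking a 2-fold difference. Points sit between -0.35 (Ankrd37) and 0.17 (Pdk3), and the widest intervals belong to Ankrd37 and Bnip3.

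The factor gene Hif1a came out level, and the hydroxylase genes Egln1 and Egln3 had changes below 0 that did not pass the threshold. Hif1a, the oxygen-regulated alpha subunit, had 11.69, 11.43, 11.49, 11.36 and 11.40 on scrambled arrays 1 to 5 and 11.57, 11.42, 11.50, 11.41 and 11.49 on antisense arrays 1 to 5. The groups overlapped throughout, with a change of 0.0028 (SE 0.060, 95% interval -0.13 to 0.13, limma adjusted p = 0.992), and 4 probe sets of the gene all lay between 0.003 and 0.10. The amount of the protein, set largely by hydroxylation, was not measured. Egln1, the main hydroxylase that marks HIF alpha, read 9.15, 8.90, 8.90, 8.79 and 9.05 on scrambled and 8.89, 8.81, 8.90, 8.71 and 8.90 on antisense arrays. Every antisense array lay below the scrambled array of its number, by little in replicate 3, and the change was -0.12 (SE 0.066, adjusted p = 0.508), or -0.069 without scrambled 1. With the replicate number as a block its 95% interval was -0.21 to -0.02 (limma adjusted p = 0.212). A second Egln1 probe set gave -0.05. Egln3, a hydroxylase gene that HIF itself switches on, stood at 10.92, 10.65, 10.68, 10.57 and 10.83 in scrambled and 10.75, 10.55, 10.78, 10.50 and 10.84 in antisense samples. These overlapped fully (change -0.05, SE 0.079, adjusted p = 0.880), and a second, dimmer Egln3 probe set gave -0.13.

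Ankrd37, which encodes an ankyrin repeat protein and is a direct HIF target, had the largest difference of the module. Its log2 values were 7.24, 6.55, 6.73, 6.77 and 7.35 on scrambled arrays and 6.73, 6.01, 6.73, 6.44 and 7.01 on antisense arrays. Scrambled arrays 1 and 5 were high, antisense array 2 was far the lowest, and the ranges overlapped. The change was -0.35 (a 1.27-fold difference, SE 0.19, 95% interval -0.75 to 0.05, adjusted p = 0.475), and -0.20 without antisense 2. With the replicate number as a block the SE was 0.075 and the adjusted p 0.0518, and 4 of 5 antisense arrays lay below their partner by 0.33 to 0.55 and replicate 3 differed by 0.01. Without both arrays of replicate 3 the blocked change was -0.44 (adjusted p = 0.0158), the only call of any member in 22 alternatives, and that alternative was chosen after the data had been seen.

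Bnip3, a mitochondrial protein gene that drives removal of mitochondria, followed the same arrays. It had 10.72, 10.05, 10.17, 10.18 and 10.78 on scrambled and 10.23, 9.46, 10.22, 10.14 and 10.54 on antisense arrays, so the lowest value was again antisense 2 and the groups overlapped. The change was -0.26 (SE 0.19, 95% interval -0.67 to 0.15, adjusted p = 0.627). It was -0.0997 without antisense 2 and -0.16 without scrambled 5. With the replicate number as a block the 95% interval was -0.48 to -0.05 (limma adjusted p = 0.187). Ndrg1, a stress-induced gene of cell differentiation, was steadier: 11.70, 11.26, 11.32, 11.17 and 11.51 on scrambled against 11.12, 10.93, 11.18, 11.06 and 11.20 on antisense arrays. All 5 antisense values lay below their partners, by 0.11 to 0.58, with some overlap between groups. The change was -0.29 (1.23-fold, SE 0.089, 95% interval -0.49 to -0.10, adjusted p = 0.147), and the gene's 5 probe sets gave -0.275 to -0.316.

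The other HIF targets differed by less. Vegfa, which encodes the main growth factor of blood vessels, had 8.25, 8.06, 7.98, 7.85 and 7.96 on scrambled and 8.04, 7.76, 8.01, 7.87 and 7.97 on antisense arrays. Replicates 1 and 2 were lower with antisense and the other three were level, for a change of -0.09 (SE 0.074, adjusted p = 0.687), or -0.047 without antisense 2 and -0.033 without scrambled 1. The histone demethylase gene Kdm3a changed by -0.08 and the collagen prolyl hydroxylase subunit genes P4ha2 and P4ha1 by -0.05 and 0.08. For P4ha1 the sign turned to -0.012 when its probe sets were averaged. Ddit4, an inhibitor of the growth kinase complex mTORC1, changed by 0.06 and Mxi1, a MYC antagonist gene, by 0.03, with adjusted p-values of 0.921 and 0.944.

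**Figure D2:**
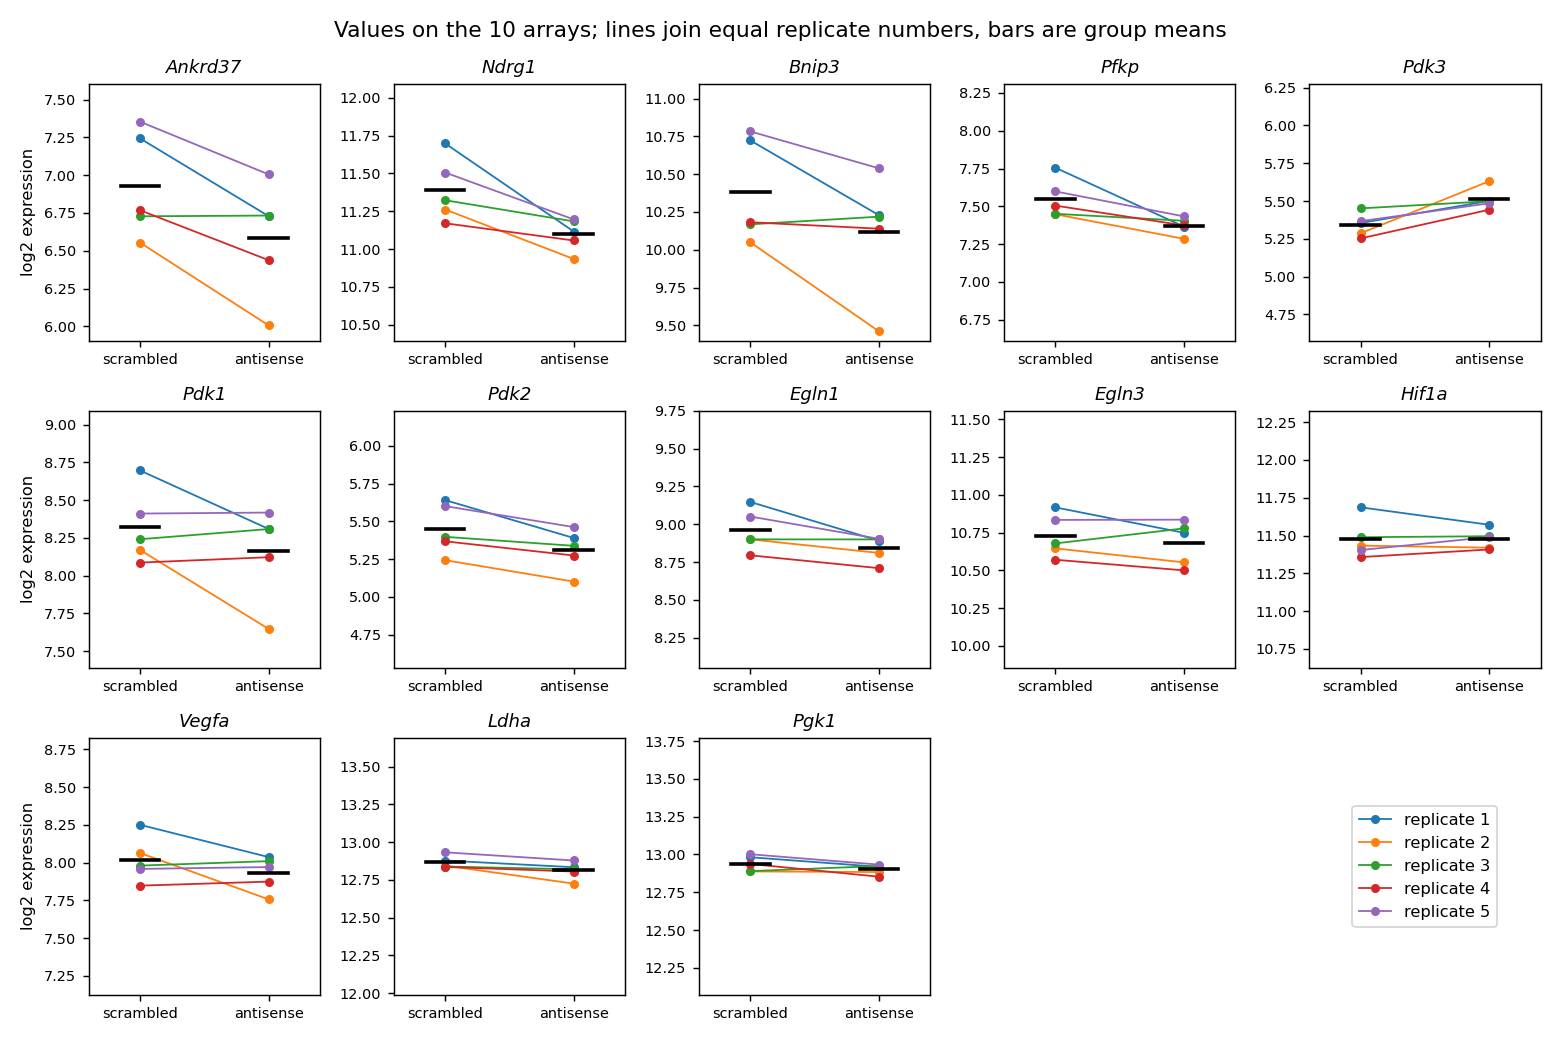
Deposited log2 value of selected members on each array, scrambled and antisense, with lines joining arrays of the same replicate number. Ankrd37 and Bnip3 are lowest on antisense array 2 (6.01 and 9.46), and Pfkp has every antisense value below every scrambled value.

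Along the glycolytic chain 12 of 13 enzymes sat below 0, most of them slightly, and none passed the threshold. That count hung partly on single arrays and was 8 of 13 without scrambled 1. The hexokinase genes, which trap glucose in the cell, changed by -0.01 (Hk1) and -0.06 (Hk2), and a second, dimmer Hk1 probe set by -0.18. Of the phosphofructokinase genes, which commit sugar to glycolysis, the platelet-type Pfkp had 7.76, 7.45, 7.45, 7.50 and 7.60 on scrambled and 7.37, 7.28, 7.40, 7.37 and 7.43 on antisense arrays. The highest antisense value lay just under the lowest scrambled value, and the change was -0.18 (1.13-fold, SE 0.059, 95% interval -0.31 to -0.05, adjusted p = 0.190). The liver-type Pfkl changed by -0.09 and the muscle-type Pfkm by 0.01. Whether Pfkp differed from the other isoforms was not tested.

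For the genes farther along the chain, changes were at most 0.07 in size apart from Aldoc. Aldoa and Tpi1, the genes of aldolase and triose-phosphate isomerase, changed by -0.02 and -0.04. Pgk1, which makes ATP from bisphosphoglycerate, gave 12.98, 12.89, 12.89, 12.94 and 13.00 on scrambled and 12.92, 12.88, 12.92, 12.85 and 12.93 on antisense arrays, a change of -0.04 (SE 0.038, 95% interval -0.12 to 0.04, adjusted p = 0.762). Ldha, which turns pyruvate into lactate, had 12.88, 12.84, 12.84, 12.84 and 12.93 against 12.83, 12.73, 12.82, 12.81 and 12.88. Each antisense value was below its partner, by 0.02 to 0.12, but the change of -0.05 (SE 0.040, 95% interval -0.14 to 0.03) had an adjusted p of 0.646. Neither gene's groups were separate. The mutase gene Pgam1 and the pyruvate kinase gene Pkm changed by -0.01 and -0.02, and Ldhb, whose enzyme favours the reverse reaction, by -0.07.

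Aldoc is the aldolase isoform gene known from brain. Its values were 7.52, 6.93, 6.95, 7.01 and 7.52 on scrambled and 7.23, 6.61, 7.29, 7.05 and 7.36 on antisense arrays. Arrays of 1 group differed by more than the groups did, whose change was -0.08 (SE 0.16, adjusted p = 0.899) and turned to 0.044 without antisense 2.

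The regulators split in sign. Pdk3, a pyruvate dehydrogenase kinase gene, was the only member with an unadjusted p under 0.05 on the higher side: 5.35, 5.29, 5.45, 5.25 and 5.37 on scrambled and 5.50, 5.63, 5.50, 5.44 and 5.48 on antisense arrays. It was higher in 5 of 5 pairs, though antisense 4 lay below scrambled 3 (change 0.17, SE 0.048, 95% interval 0.06 to 0.27, adjusted p = 0.120). Pdk2 went the other way, with 5.64, 5.24, 5.40, 5.37 and 5.60 against 5.39, 5.10, 5.34, 5.27 and 5.46, lower in 5 of 5 pairs by 0.06 to 0.25 (change -0.14, SE 0.083, adjusted p = 0.547; -0.084 without antisense 2 and -0.089 without scrambled 1). Pdk1, the kinase gene best known as a HIF target, had 8.70, 8.17, 8.24, 8.09 and 8.41 on scrambled and 8.31, 7.65, 8.31, 8.12 and 8.42 on antisense arrays. Only replicates 1 and 2 were lower, and the change was -0.16 (SE 0.14, adjusted p = 0.717), or -0.032 without antisense 2 and -0.066 without scrambled 1. Pfkfb3 and Pfkfb4 changed by 0.06 and 0.02. Their enzymes make and break a fructose bisphosphate that activates phosphofructokinase and is not itself a step of the glycolytic chain.

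Means over the genes of each set were then taken per array and set side by side by replicate number. The 12 HIF genes averaged 9.46, 9.10, 9.17, 9.05 and 9.33 on scrambled and 9.18, 8.90, 9.23, 9.06 and 9.28 on antisense arrays. Pair differences were -0.28, -0.20, 0.056, 0.0046 and -0.044, so replicates 1 and 2 carried the lower mean (9.22 ± 0.17 against 9.13 ± 0.15, SD, n = 5 each). Their mean difference of -0.092 was -0.045 without replicate 1 and -0.067 without replicate 2. The 13 enzymes, at 10.53 ± 0.086 and 10.48 ± 0.071 (SD, n = 5 each), differed by -0.13, -0.091, 0.040, -0.014 and -0.048 in turn. The regulators differed by -0.071, -0.038, 0.011, 0.012 and 0.040. Group ranges overlapped in all 3 sets.

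**Figure D3:**
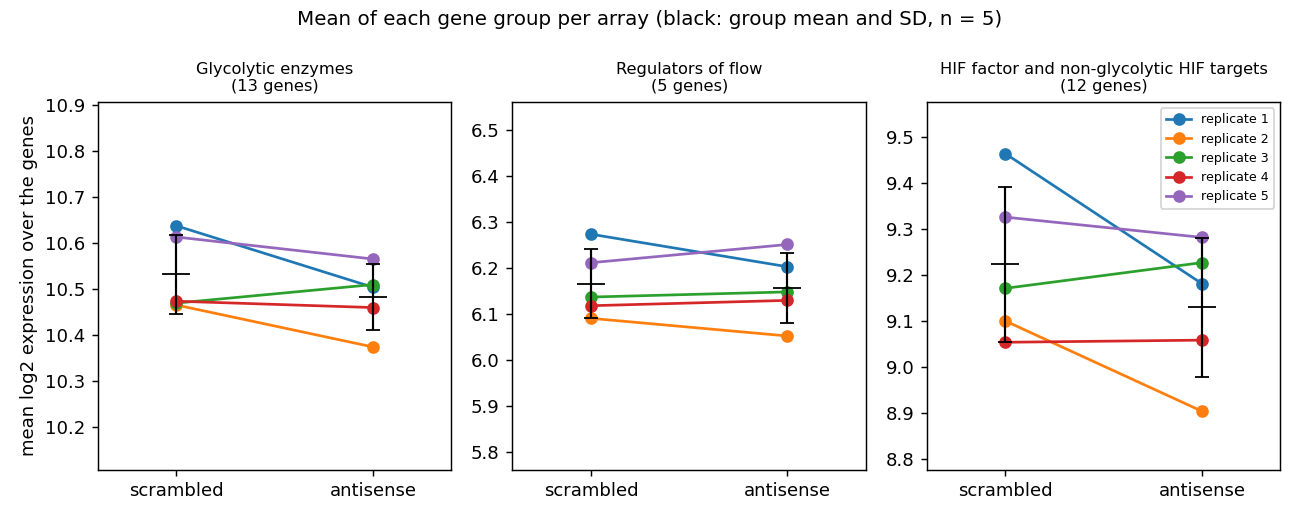
Mean log2 value over the genes of each group on every array (coloured by replicate number, joined between scrambled and antisense; black, group mean and SD, n = 5). The HIF genes range from 8.90 (antisense 2) to 9.46 (scrambled 1), a wider range than the difference between group means (-0.092).

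As a set, the HIF genes differed more between arrays of one group than most genes did, whereas the enzymes and regulators had medians near the middle. Bnip3 and Ankrd37 had residual SDs within groups of 0.37 and 0.36, at percentile 99.9 of all genes tested, and Aldoc (0.30), Pdk1 (0.28) and Ddit4 (0.27) stood at 99.5 or above. Mxi1 followed at 98.1, Pdk2 stood at 91.8 and Ndrg1 between them, so that 8 of 30 members lay among the most variable 10%. Several enzymes sat at the other end, with Pgam1 at percentile 2.17, Pgk1 at 7.07 and Tpi1 at 8.22, whereas Pkm was at 49.6 and Ldhb at 79.9. The median percentile was 87.4 for the HIF genes, 51.3 for the enzymes and 53.4 for the regulators.

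This spread followed particular arrays. Antisense 2 was the lowest array for 17 of 30 members, whereas 16.6% of all genes were lowest there. Scrambled 1 was the highest for 17 members (13.2% of all genes), and scrambled 5 for 7 (11.7% of all genes). Members above their own mean over the arrays numbered 26 on scrambled 1, 24 on scrambled 5 and 23 on antisense 5, but 6 each on antisense 2, antisense 4 and scrambled 2. The same count over all genes was not made. Scrambled 1 also had the highest ratio of 3 prime to 5 prime signal of the control transcripts (0.645 on the log2 scale, against 0.469 to 0.584 on the other 9 arrays), while antisense 2, at 0.554, was within that range. The part of these values in the result was not tested, and the groups' ratios, 0.545 ± 0.070 for scrambled and 0.538 ± 0.018 for antisense (SD, n = 5 each), gave an exact permutation p of 0.857.

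**Figure D4:**
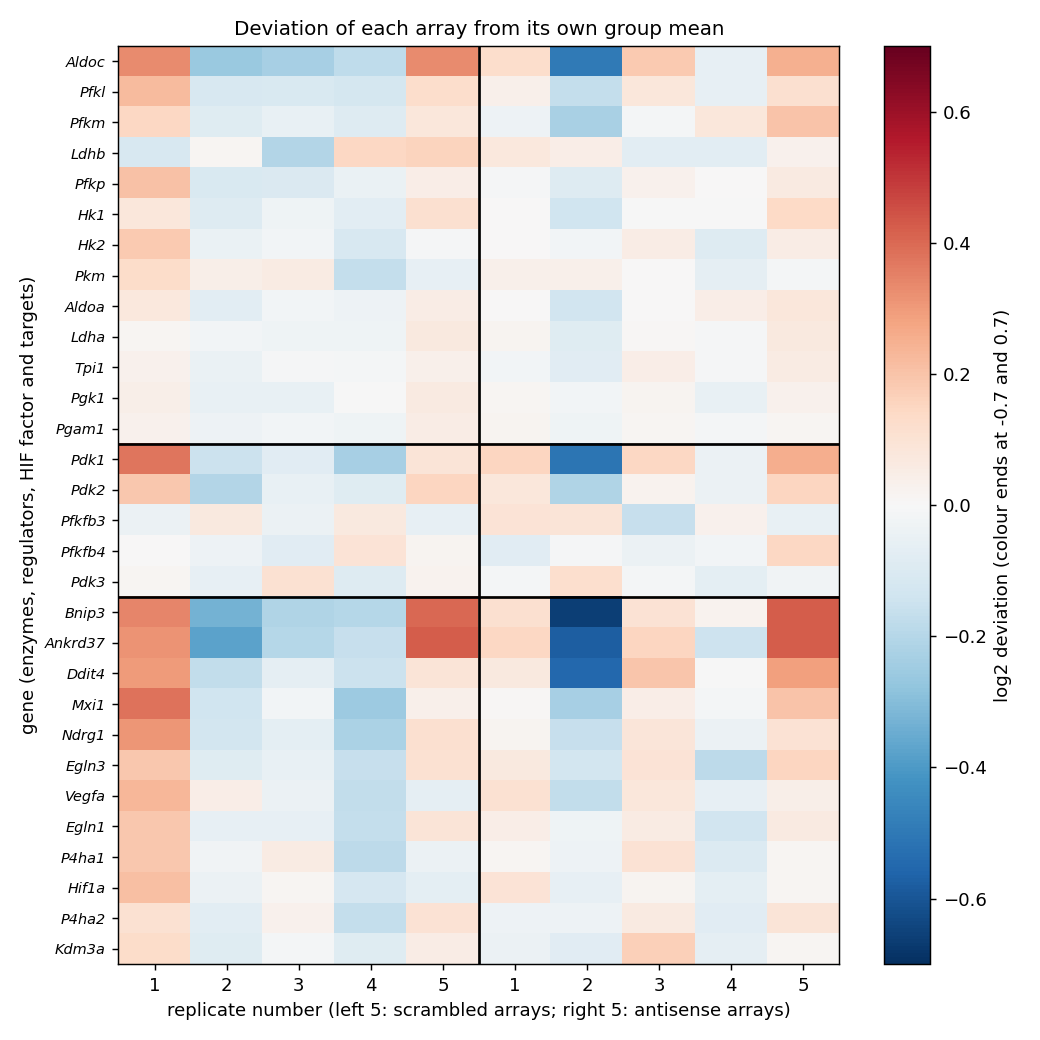
Log2 deviation of each array from the mean of its own group, for the 30 tested members (rows, by gene group) and the 10 arrays (columns, scrambled left and antisense right). Most rows share their colours: high on scrambled 1 and 5 and on antisense 5, and low on antisense 2, deepest for Bnip3, Ankrd37 and Ddit4.

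Deviations from the group means moved together across the members. Over the 10 arrays the mean correlation between pairs of genes was 0.744 for the HIF genes, 0.558 for the enzymes, -0.077 for the regulators and 0.0118 for all genes tested. Bnip3, taken as the reference after its values had been seen, correlated with 17 of 29 other members at over 0.7 (58.6%), against 8.25% of all other genes. The closest members were Ankrd37 and Aldoc (r = 0.98 each), Hk1 (0.97), Pdk2 (0.96), Aldoa and Ldha (0.95 each). Hif1a itself was at 0.44, Ldhb at 0.05 and Pkm at 0.02, and only Pdk3 (-0.30) and Pfkfb3 (-0.57) were below 0. With antisense 2 and scrambled 2 left out, the arrays farthest from the median of the Bnip3 deviations, the median over members was 0.80 (0.81 with all 10 arrays). All points share the same hybridised arrays, and removing group means ties the values of a group to each other, so the correlations are given as descriptions.

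The members' deviations were also compared between arrays of the same replicate number. Their correlations were 0.467, 0.854, -0.248, 0.285 and 0.805 for replicates 1 to 5, above 0 for every number but 3. Arrays of different number were not compared for the members, so these values do not show whether the shared deviation ran by replicate number. Replicates 2 and 5 were the strongest, 2 low in both groups and 5 high in both. Of 30 members, 5 were lower in all 5 pairs (Pfkp, Ldha, Pdk2, Egln1 and Ndrg1), beside 6.67% of all genes, and 12 were lower in at least 4 pairs, beside 21.1%. With the number as a block, 7 of 30 members passed an unadjusted p of 0.05, against 17.2% of all genes (6.45% lower and 10.7% higher). The 6 lower were Pfkp, Pdk2, Bnip3, Ankrd37, Egln1 and Ndrg1, and the 1 higher was Pdk3. Still 0 of 30 passed the adjusted threshold, beside 3.05% of genes (385 in all, 1.04% lower and 2% higher), and Ankrd37 (0.0518) and Ndrg1 (0.0582) came nearest.

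Of 74 further genes of the pathway tested, 3 were called (4.05%, beside 1.53% of all genes), and 14 passed an unadjusted p of 0.05 (18.9%, beside 12.9%). Of 19 tested genes of glucose and lactate transport and further glycolytic isoforms 0 passed in limma, with 3 past an unadjusted p of 0.05. The smallest p-values were those of Pfkfb2 (-0.17, adjusted p = 0.252), Hkdc1 (-0.15, 0.269) and the liver glucose carrier gene Slc2a2 (0.18, 0.329). Of 11 HIF subunit and regulator genes 0 passed, with 4 past an unadjusted 0.05, led by the co-activator gene Ep300 at -0.11 (adjusted p = 0.195), Arnt2 at 0.15 (0.244) and the asparaginyl hydroxylase gene Hif1an at -0.15 (0.272).

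Among 32 further HIF targets, 2 were called higher and 0 lower, beside 1.16% and 0.372% of all genes. Called or not, 19 of the 32 had a change below 0 and 13 a change above 0. Plod2, a lysyl hydroxylase gene that prepares collagen for cross-linking, had 8.54, 8.39, 8.35, 8.21 and 8.42 on scrambled and 8.68, 8.73, 8.66, 8.55 and 8.67 on antisense arrays. No value overlapped, and the change was 0.27 (1.21-fold, SE 0.058, adjusted p = 0.0339), with 0.25 at a second probe set. Angptl4, a secreted inhibitor of lipoprotein lipase that PPARs also control, had 8.83, 8.88, 8.90, 8.95 and 8.99 against 9.11, 9.20, 9.19, 9.04 and 9.20. It rose by 0.24 (1.18-fold, SE 0.046, adjusted p = 0.0213), again with no overlap. Both rose in 5 of 5 pairs, opposite in sign to Ankrd37, Ndrg1 and Bnip3. Correlations with the Bnip3 deviations over the 10 arrays were 0.24 for Plod2 and -0.01 for Angptl4. Without antisense 2 and scrambled 2 they were 0.73 and 0.16, so the low value for Plod2 hung on those arrays. Over all 10 arrays the 32 further HIF targets ran from -0.88 (Tfrc) to 0.98 (Fam162a) in this correlation. Plod2 and Angptl4 therefore do not stand for the list, and values as high as those of the closest members also occurred outside the module. Plod2 kept its call only without antisense 4 (adjusted p = 0.0444) or scrambled 1 (0.0176) and lost it in the other 8 leave-one-out fits (to 0.0841). Angptl4 lost it without antisense 3 (0.0654) or 5 (0.0554) or scrambled 2 (0.0524) or 3 (0.0584).

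Ero1a, the disulfide-forming oxidase gene of the endoplasmic reticulum, was named after its values were seen. It had 9.84, 9.31, 9.34, 9.22 and 9.59 on scrambled and 9.14, 9.03, 9.17, 9.06 and 9.22 on antisense arrays, lower in 5 of 5 pairs. The change was -0.33 (SE 0.099, adjusted p = 0.135), and its 3 probe sets ran from -0.24 to -0.33. It did not pass the threshold.

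At the entry of pyruvate into mitochondria 1 of 10 tested genes passed, on the lower side, beside 0.372% of all genes. Pdk4, the pyruvate dehydrogenase kinase gene of fasting, fell by 0.42 (SE 0.088, adjusted p = 0.0336), from 5.07, 5.12, 4.88, 4.96 and 4.94 on scrambled to 4.88, 4.51, 4.65, 4.31 and 4.53 on antisense arrays. The antisense values straddle the lowest level tested (4.559), and leaving out any array but antisense 1 (adjusted p = 0.00631) ended the call (0.0519 to 0.0857). So the 4 kinase genes ran from -0.42 for Pdk4 through -0.16 and -0.14 for Pdk1 and Pdk2 to 0.17 for Pdk3, and differences between them were not tested. Of 2 tested gluconeogenic genes, Fbp2, a fructose bisphosphatase gene, was lower in 5 of 5 pairs by 0.15 to 0.26 (change -0.20, SE 0.083, adjusted p = 0.321) and passed only with the replicate block (SE 0.033, adjusted p = 0.0210). That call was lost when any replicate number was left out of the blocked fit (0.0522 to 0.0825).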

How the data were processed

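Total RNA (100 ng a sample, mirVana extraction) was labelled with biotin using MessageAmp Premier and hybridised to mouse Affymetrix arrays, per the labels' protocols. The deposited table holds a log2 value for each probe set on each array; how the authors summarised and normalized them is not given in the sources used here, and they were used as they stand. Of 45101 probe sets (64 controls), 34945 list 1 gene symbol, 932 several and 9160 are not listed in the platform annotation; 34741 matched a current RefSeq gene. The brightest probe set a gene was kept, and genes under the 40th percentile of probe-set means were left out of the test.

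Groups came from the sample titles. They were compared with limma 3.58.1 (lmFit, eBayes, two-sided) in R 4.3.3, over 12633 genes with Benjamini-Hochberg adjustment at 0.05, tested on simulated data. Figures used matplotlib 3.10.9 in Python 3.11.15. The members and lists were chosen with earlier results of these data known. Values per array are given for the 8 members with the largest changes, Hif1a, Egln1, Egln3, Vegfa, Ldha, Pgk1 and Aldoc (the last chosen after its values were seen), and for companion genes that passed; otherwise the 3 smallest p-values of a list are named. The number of arrays limits the precision.

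Over all genes, deviations of same-numbered arrays correlated at 0.172, 0.377, 0.112, 0.152 and 0.335 (arrays of different number, mean -0.0594, range -0.312 to 0.231). All same-number values exceed 0.1, but several lie within the range of arrays of different number. Whether the numbers pair the samples is therefore not settled. The main fit has no block, and pairs and the block are given beside it. Alternatives were that block, quantile normalization, median centring, no filter or a 60th percentile filter, the mean of probe sets, trended robust moderation, leaving out each array, and, added later, the block without 1 replicate number.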

Additional observations from a re-analysis of the deposited data

How the results depend on the processing

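Of 657 member values under 22 alternatives (17 planned, 5 added after seeing the data), 615 kept direction and side of the threshold, 1 newly passed and 41 changed sign; 18 of 30 members never changed sign. All sign changes were in 12 members whose change was at most 0.080 in size: P4ha1 went to -0.012 with the mean of probe sets and Hif1a to -4.8e-05 with median centring, and leaving out arrays gave Hk1 -0.0481 to 0.0216 (blocked -0.0315 to 0.0056), Pfkm -0.0354 to 0.0706 (blocked -0.0279 to 0.0593), Aldoa -0.0378 to 0.016 (blocked -0.0385 to 0.00015), Aldoc -0.145 to 0.0445, Pgam1 -0.0189 to 0.00323 (blocked -0.0173 to 0.000175), Pkm -0.0595 to 0.0145 (blocked -0.044 to 0.00528), Pfkfb4 -0.0169 to 0.0426 (blocked -0.0123 to 0.0471), Egln3 -0.0856 to 0.00103, Ddit4 -0.0126 to 0.197 (blocked -0.00553 to 0.153), Hif1a -0.0264 to 0.056 (blocked -0.018 to 0.0324) and Mxi1 -0.0286 to 0.13 (blocked -0.0245 to 0.129). Further blocked leave-outs turned Pfkm to -0.0155, Hif1a to -0.00913 and Mxi1 to -0.00615. No member passed except Ankrd37, with the replicate block without replicate 3, making the count 1 for all members and for the HIF genes (0 to 1 over the blocked leave-outs). Over all genes, 193 calls became 385 with the replicate block and 303 with trended robust moderation, and 92 to 201 when 1 array was left out (95, 92 and 123 without antisense 3, 4 and 5, and 101 without scrambled 3), or 142 to 187 with the block and a replicate number left out. Calls among further HIF targets went from 2 to 1 without a filter and to 0 to 2 in leave-outs (0 to 1 with the block), those at pyruvate entry from 1 to 0 with the 60th percentile filter, where Pdk4 is not tested, and to 0 to 1 in leave-outs with or without the block, and those of gluconeogenesis from 0 to 1 with the replicate block. The regulators' median was -0.071 with the 60th percentile filter, which tests fewer genes. The cause of the other changes was not tested. Among named genes the block changed the call of Fbp2 and of the marker Ttr and no other. Leaving out 1 array moved the median change of all members between -0.069 and -0.017, of the enzymes between -0.051 and -0.0099, of the HIF genes between -0.095 and -0.028 and of the regulators between -0.017 and 0.043.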
